A study of Rattus norvegicus with 11 samples.

Results

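Cytochrome c oxidase is complex IV of the mitochondrial respiratory chain, the enzyme that passes electrons from cytochrome c to oxygen and pumps protons across the inner mitochondrial membrane. Its catalytic core is made in the mitochondrion, and the smaller subunits around it are encoded in the nucleus. Some nuclear subunits of rodents come as a heart form, used in heart and skeletal muscle, and a liver form, used in most tissues.

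The subunits examined were Cox4i1, Cox5a, Cox5b, Cox6a1, Cox6a2, Cox6c, Cox7a2 and Cox8a, taken as every probe set whose platform annotation gave one of these symbols. A probe set is a group of short probes on the array that give a single reading together. Of 8799 probe sets on the array, 18 carried the symbol of 1 of these genes alone, and they covered 7 of the 8 genes. The array had probe sets of this kind for 4736 genes. Another 2 were annotated to a second symbol as well: rc_AA819708_s_at to Cox7a2 and Cox7a2l2, and X15030_at to Cox5a and LOC100361008. These 2 are given by their identifiers, since the reading could come from either gene, and Cox7a2 had no probe set of its own. The readings were bright, with 16 of the 20 probe sets above the 90th percentile of the table.

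RNA of the heart ventricle was hybridised to 11 Affymetrix arrays, 6 from old Fischer-344 rats of 22 months and 5 from young Fischer-344 rats of 4 months. Fischer-344 is an inbred strain, and the labels give no treatment and no allele for either group. The labels do not say whether an array held 1 animal or a pool, so every p-value rests on the spread among arrays of a group, and that spread may be technical. Values are log2 intensities, differences are old minus young on that scale, and errors of differences are standard errors from limma. Errors of group means are SDs over 6 old or 5 young arrays. The number of arrays limits the precision of every difference, with a median standard error of 0.56 over the tested probe sets. In ventricle as a whole, fewer muscle cells and less RNA per cell cannot be told apart.

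Bacterial spike-in controls, transcripts added to every sample, set arrays apart within both groups. Their mean brightness ran from 9.55 to 15.24 in old arrays and from 9.63 to 11.97 in young arrays. Split at the widest gap of 1.76, which was barely wider than the second at 1.71, there were 5 bright arrays, namely old replicates 3 to 6 and young replicate 4, and 6 dim arrays. Old replicates 3 and 4 had the highest 3' over 5' ratios of the GAPDH control, 3.39 and 4.09 on the log2 scale, against 0.07 to 0.77 elsewhere. Heart tissue was the labelled content. The heart muscle markers Myh6, Tnni3 and Actc1 averaged 15.36, 15.76 and 16.86 in old arrays and 15.60, 15.80 and 16.44 in young arrays. Means of the other tested heart muscle markers went down to 8.17 in old arrays and 8.95 in young arrays.

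The promoters of a heart form and a liver form, of different subunits, are shown because these genes are set against each other below. Both are the 250 bases before the transcript start in the RefSeq table of assembly GRCr8, 5′ to 3′ on the gene's strand, which is the minus strand for both. The window of Cox6a2 lies at chr1:192219717-192219966 and that of Cox8a at chr1:213833624-213833873. Capitals mark matches to a loose form of the MEF2 motif (CTA, 4 bases of any kind, TAG) in Cox6a2. In Cox8a they mark matches to the ETS motif CCGGAAG, read on either strand.
Cox6a2: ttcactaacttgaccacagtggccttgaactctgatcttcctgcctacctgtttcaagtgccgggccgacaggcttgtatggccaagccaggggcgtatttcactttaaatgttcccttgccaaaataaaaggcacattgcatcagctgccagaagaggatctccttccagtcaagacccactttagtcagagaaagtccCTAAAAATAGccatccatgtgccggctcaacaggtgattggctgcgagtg
Cox8a: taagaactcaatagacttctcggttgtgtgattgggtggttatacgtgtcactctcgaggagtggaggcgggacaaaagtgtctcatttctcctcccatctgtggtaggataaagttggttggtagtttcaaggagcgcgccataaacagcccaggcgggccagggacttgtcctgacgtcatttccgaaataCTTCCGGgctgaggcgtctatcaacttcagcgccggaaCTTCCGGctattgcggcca
The Cox6a2 window held 1 MEF2 match and no ETS match, and the Cox8a window held 2 ETS matches and no MEF2 match. Of the 6 subunit genes in the promoter table, 2 held this loose MEF2 form and 3 the ETS motif. Of 33469 windows of the same length, 3.41% held the loose MEF2 form and 7.27% the ETS motif. The NRF1 motif (GCGCA, any base, GCGC) was in 0 of the 6 and in 3.75% of all windows. The Sp1 motif GGGCGG was in 3 of the 6 and in 30.5% of all. All 4 motifs were searched on both strands, and none contains another. These matches describe letters and not bound sites.

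Readings of the cytochrome oxidase subunits mostly lay lower in old ventricle than in young, by amounts that did not pass the test. Of the 18 probe sets of 1 gene, 17 were bright enough to be tested, and 15 of the 17 had a negative difference, 88.2% of them. Over all 5244 tested probe sets 50.6% had one. The median difference of the 17 was -0.46, against -0.01 over all tested probe sets. These 17 cover 7 genes, several of them more than once, and all were read on the same 11 arrays. They are thus not independent, and their shift as a set was not tested. At an adjusted p under 0.05 in limma, 0 of the 17 were called, and 0% of all probe sets were. At an unadjusted p under 0.05 there were 4 of the 17, all lower in old, against 4.12% of all probe sets in that direction and 7.51% in either. Of these 4, 3 belonged to Cox8a, so they are not independent of each other. In no case did the old and young arrays lie apart without overlap, as 0.973% of all tested probe sets did in either direction and 0.42% with old lower.

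**Figure D1:**
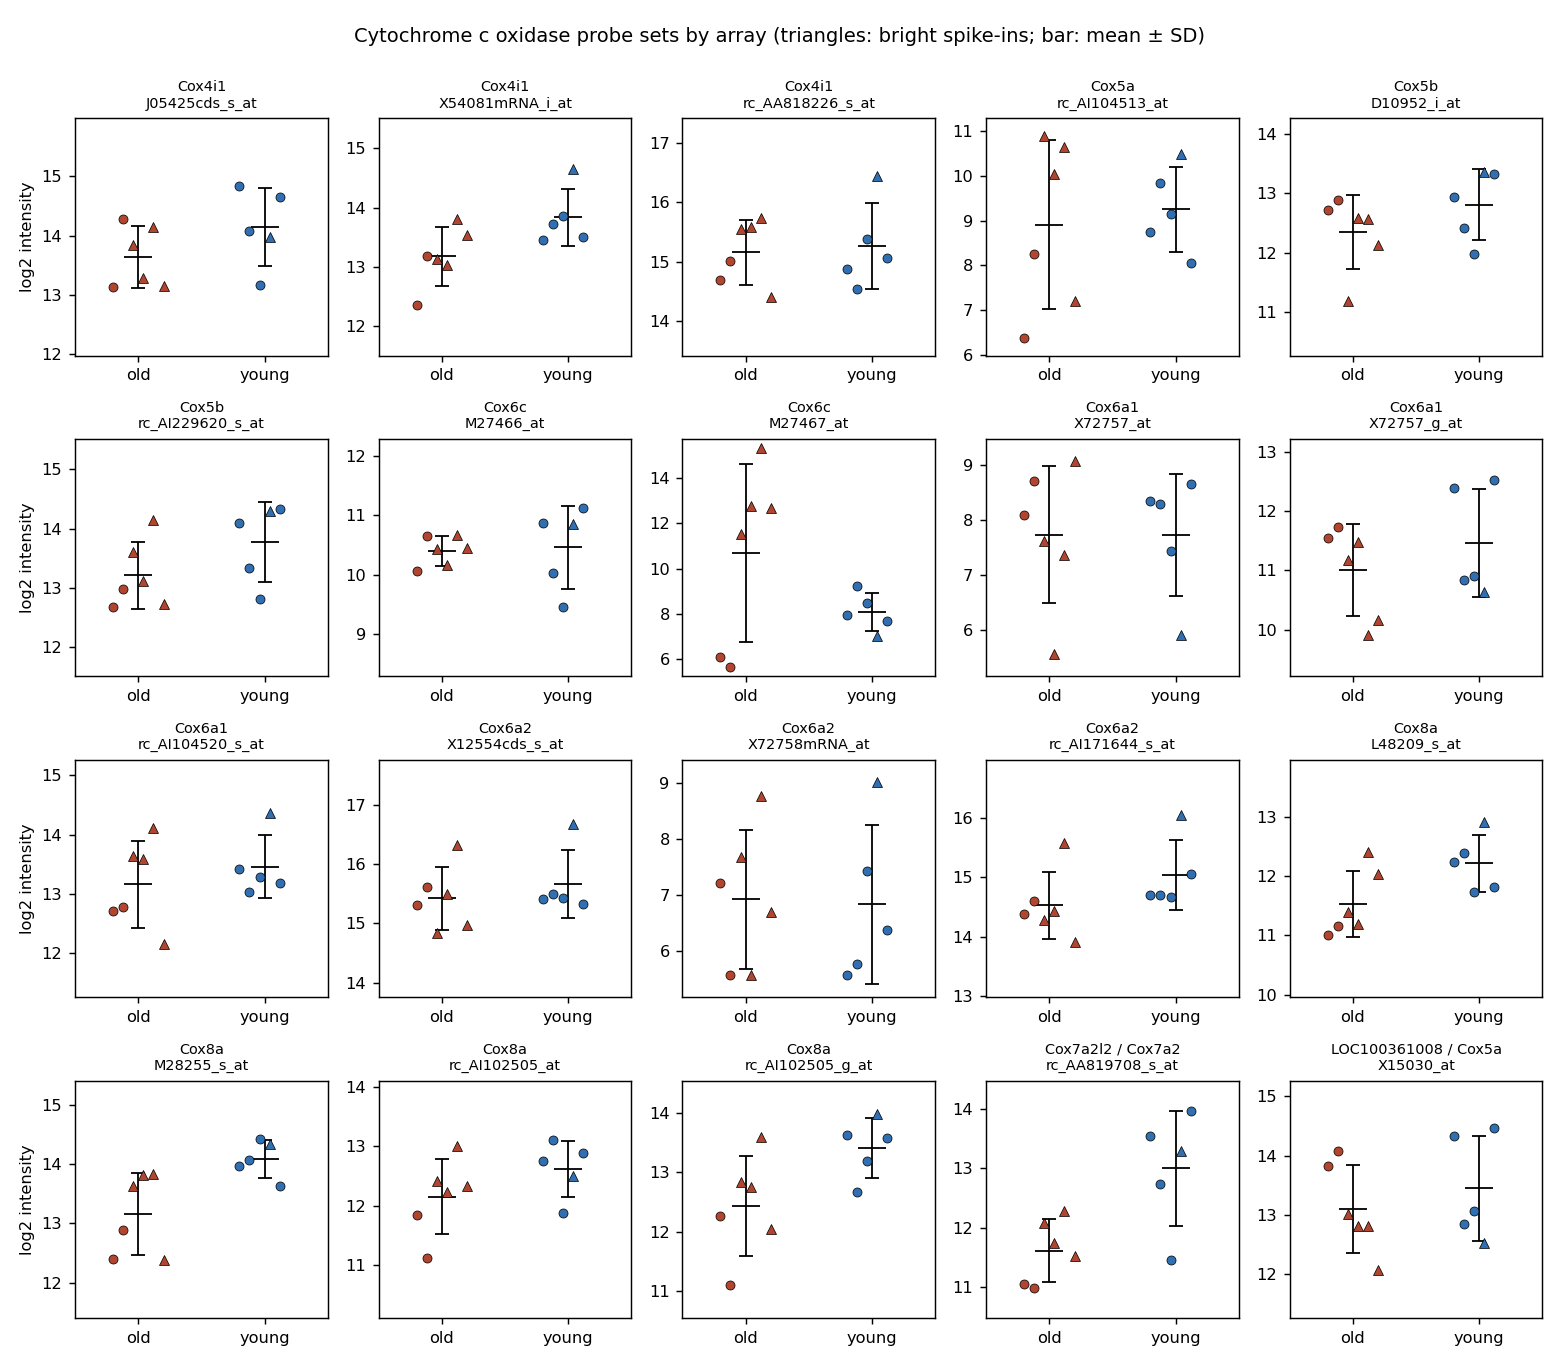
Log2 intensity of each of the 20 probe sets, each on its own axis, with the 6 old arrays in red left of the 5 young arrays in blue, triangles for arrays with bright spike-ins and the bar for mean ± SD. The groups overlap in every panel, and M27467_at of Cox6c spans the widest range, 9.66 log2 units.

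**Figure D2:**
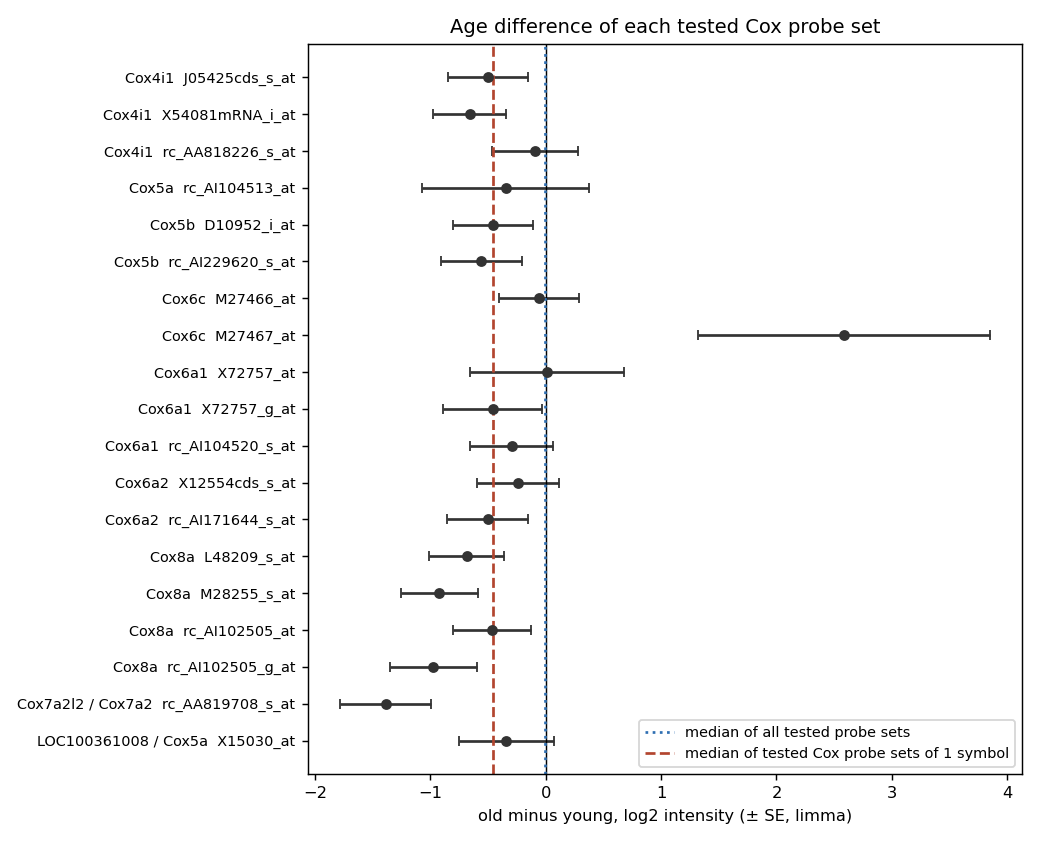
Difference of old minus young for the 19 tested probe sets (log2 intensity, point ± SE from limma), with the median of the 17 probe sets of 1 symbol dashed and that of all tested probe sets dotted. 17 of the 19 points lie left of 0, and M27467_at stands alone at 2.59.

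The arrays at the ends of the range recurred from subunit to subunit. Young replicate 4 gave the highest reading of 8 of the 17 probe sets. Old replicate 1 gave the lowest of 5 and old replicate 6 of 4. The mean of the 7 genes, each by its brightest probe set, was lowest in old replicates 1 and 6, at 12.04 in both. It was highest in young replicate 4, at 13.92, followed by old replicate 5, at 13.64. The other young arrays lay between 12.85 and 13.05, so the old group spread on both sides of them. Old replicate 6 also had the lowest 98th percentile of intensity, 4994, against 7040 to 9285 in the other arrays, and its part in these readings was not tested. Without young replicate 4 the count of lower probe sets was 13 of 17, and without old replicate 6 it was 15 of 17. With any 1 array left out, 6 of the 19 tested differences stayed within 1.5 times their value, 3 of them of Cox8a, and 13 moved further under at least 1 omission. Besides Cox8a the 6 were X54081mRNA_i_at, rc_AI229620_s_at and rc_AA819708_s_at.

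Cox8a, the form of subunit VIII found in liver and most tissues, showed the largest negative differences among the genes with probe sets of their own. All 4 of its probe sets lay lower in old. M28255_s_at read from 12.39 to 13.84 in old arrays, with a median of 13.26. In young arrays it read 13.97, 14.07, 14.42, 14.34 and 13.63. Each of the 6 old arrays was under the average of the young ones, and 4 of them were under every young array. M28255_s_at averaged 13.16 ± 0.69 in the old arrays and 14.09 ± 0.32 in the young arrays, a ratio of 0.527. The difference was -0.92 ± 0.33 (limma adjusted p = 0.560).

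The other Cox8a probe sets ran the same way with different sizes. The difference of rc_AI102505_g_at was -0.97 ± 0.38 (limma adjusted p = 0.560), with old replicate 2 lowest of all arrays at 11.10. L48209_s_at differed by -0.68 ± 0.33 (limma adjusted p = 0.660). It read 12.40 and 12.03 in old replicates 5 and 6 and at most 11.40 in the other old arrays, against 11.72 to 12.91 in young arrays. The probe set rc_AI102505_at differed by -0.47 ± 0.34, or by -0.26 without old replicate 2, and was 0.00053 higher in old among the bright arrays alone. Within the dim arrays the 4 differences ran from -1.58 to -0.96.

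The probe set shared by Cox7a2 and Cox7a2l2 had the largest negative difference of all 20. Cox7a2 is the liver form of subunit VIIa. In old arrays rc_AA819708_s_at read from 10.99 to 12.28, with a median of 11.63. In young arrays it read 13.54, 12.74, 11.45, 13.29 and 13.97. Every old array lay below 4 of the 5 young arrays, and young replicate 3 lay inside the old range. It averaged 11.61 ± 0.53 in the old arrays and 13.00 ± 0.97 in the young arrays, a ratio of 0.382. The difference was -1.39 ± 0.39 (limma unadjusted p = 0.00225, adjusted p = 0.537). It was -1.39 within the bright and -1.90 within the dim arrays.

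Cox4i1 encodes the ubiquitous form of subunit IV, the largest of the nuclear-encoded subunits, and its 3 probe sets gave differences of unequal size. X54081mRNA_i_at read from 12.36 to 13.81 in old arrays, with a median of 13.16. It read 13.45, 13.72, 13.86, 14.65 and 13.51 in young arrays. Each of the 6 old arrays was under the average of the young ones, and the difference was -0.66 ± 0.32 (limma adjusted p = 0.661). J05425cds_s_at differed by -0.50 ± 0.34 (limma adjusted p = 0.753). For rc_AA818226_s_at the difference was -0.10 ± 0.37 (limma adjusted p = 0.965), and it turned to 0.20 without young replicate 4, which read 16.44 against at most 15.74 in any other array.

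Cox5a and Cox5b encode subunits that join the complex around the catalytic core, and subunit Vb binds zinc. For Cox5b both probe sets lay lower in old. The probe set rc_AI229620_s_at read from 12.69 to 14.15 in old arrays, with a median of 13.05. It read 14.09, 13.34, 12.81, 14.29 and 14.34 in young arrays, and 4 of the old arrays lay inside the young range. Its difference was -0.56 ± 0.35 (limma adjusted p = 0.724). D10952_i_at differed by -0.46 ± 0.35 (limma adjusted p = 0.776), with old replicate 3 lowest at 11.18. Its difference was -1.24 within the bright arrays and 0.14 within the dim ones.

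For rc_AI104513_at, the probe set of Cox5a alone, the young readings lay inside the old range. This probe set read from 6.39 to 10.88 in old arrays, with a median of 9.15. It read 8.74, 9.83, 9.15, 10.49 and 8.04 in young arrays. The 4 highest readings, between 10.04 and 10.88, came from bright arrays: old replicates 3, 4 and 5, and replicate 4 of the young group. The difference was -0.35 ± 0.72 (limma adjusted p = 0.928), and it became 0.15 without old replicate 1. X15030_at, shared with LOC100361008, differed by -0.34 ± 0.41 (limma adjusted p = 0.863), by -0.090 without young replicate 5 and by -0.12 without young replicate 1. For X15030_at the higher readings came from dim arrays: old replicates 1 and 2 read 13.83 and 14.08 and young replicates 1 and 5 read 14.33 and 14.46, against at most 13.07 in the other 7 arrays.

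Cox6c, a small subunit that spans the membrane, had the pair of probe sets whose within-array difference varied most, with an SD of 3.19 over the 11 arrays. M27466_at read from 10.05 to 10.67 in old arrays, with a median of 10.44. In young arrays it read 10.87, 10.03, 9.45, 10.85 and 11.12. The old arrays lay inside the young range, and the difference was -0.06 ± 0.34 (limma adjusted p = 0.977).

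M27467_at, annotated to the same gene, fell into separate levels within the old group. Old replicates 1 and 2 read 6.10 and 5.65. Old replicates 3, 4, 5 and 6 read 11.52, 12.76, 15.32 and 12.69. The young arrays read 7.97, 9.25, 8.51, 7.01 and 7.70. The 4 high readings were thus the 4 old arrays with bright spike-ins, while young replicate 4, also bright, was the lowest young array. M27467_at averaged 10.67 ± 3.92 in the old arrays and 8.09 ± 0.84 in the young arrays, with a difference of 2.59 ± 1.26 (limma adjusted p = 0.661). It was 6.06 within the bright arrays and -2.48 within the dim arrays. With spike-in brightness as a covariate it was -0.034. The within-array difference M27466_at minus M27467_at averaged -0.27 ± 3.87 in the old arrays and 2.37 ± 1.42 in the young arrays. Its change between ages gave an exact permutation p of 0.175, or 0.745 after adjustment over 17 pairs. M20183_at, annotated to the pseudogene Cox6c-ps1 and too dim to be tested, read 5.57 to 7.77 in old arrays and 5.68 to 7.77 in young arrays, so it did not share the high readings.

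**Figure D3:**
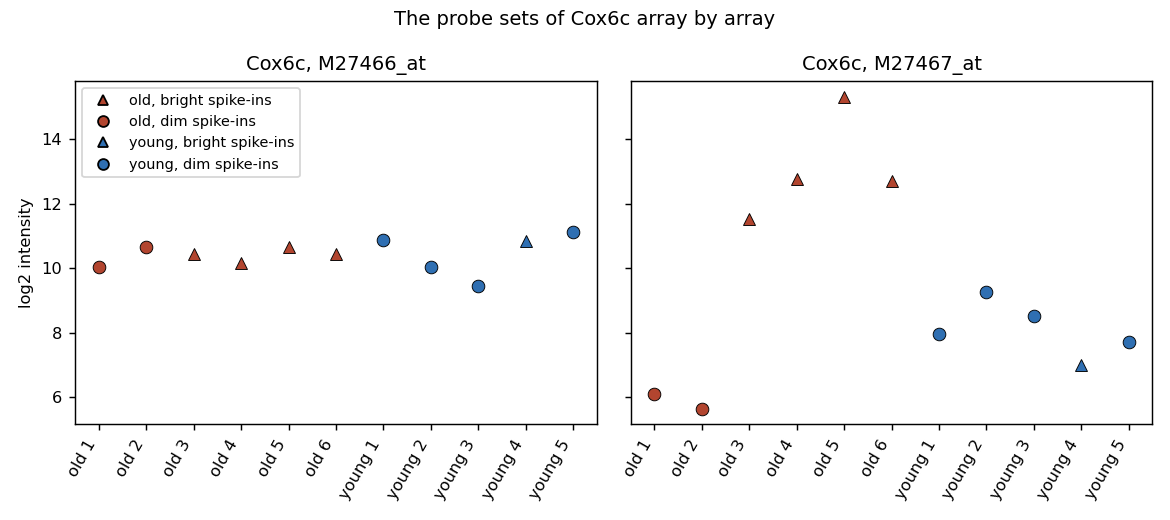
Log2 intensity of the Cox6c probe sets in each of the 11 arrays, old arrays left of young ones, with triangles for bright and circles for dim spike-ins. M27466_at stays between 9.45 and 11.12, while M27467_at lies at 11.52 or more in old replicates 3 to 6 and at 9.25 or less in the other arrays.

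Subunit VIa was the 1 subunit among the 8 genes with both its heart and its liver form. Cox6a2, the heart and muscle form, had 2 bright probe sets for which 5 of 6 old arrays were under the young average. X12554cds_s_at read from 14.84 to 16.32 in old arrays, with a median of 15.40. It read 15.41, 15.49, 15.42, 16.67 and 15.32 in young arrays. Young replicate 4 stood far above the other young arrays, which lay between 15.32 and 15.49. The difference was -0.24 ± 0.35 (limma adjusted p = 0.891), and it became 0.012 without young replicate 4. The probe set rc_AI171644_s_at differed by -0.50 ± 0.35 (limma adjusted p = 0.755), or by -0.25 without that array. X72758mRNA_at, the third, had a mean too low to be tested and lay at the intensity floor of 5.57 in 2 old arrays and 1 young array.

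Cox6a1, the liver form, had 1 bright probe set and 2 dimmer ones. The bright one, rc_AI104520_s_at, read from 12.15 to 14.11 in old arrays, with a median of 13.19. It read 13.42, 13.03, 13.28, 14.37 and 13.18 in young arrays. Old replicates 1, 2 and 6 lay below every young array, and old replicates 3, 4 and 5 lay above 4 of the 5. The difference was -0.30 ± 0.36 (limma adjusted p = 0.866), and it was -0.067 without young replicate 4 and -0.093 without old replicate 6. X72757_g_at differed by -0.46 ± 0.43 (limma adjusted p = 0.823), or by -0.20 without young replicate 5, and X72757_at by 0.0073 ± 0.67 (limma adjusted p = 0.997).

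To ask whether the heart form moved unequally with the liver forms, the difference between them was taken within each array and compared between ages. Only Cox6a1 is the liver form of the same subunit as Cox6a2. Cox8a and Cox7a2 are liver forms of other subunits, so their differences from Cox6a2 compare different subunits. Cox8a was not set against its own heart form, Cox8b. The size of such a difference depends on the probes, so it is read between groups of arrays only. Cox6a2 minus Cox6a1 was 2.26 ± 0.63 in the old arrays and 2.20 ± 0.18 in the young arrays. The change of 0.056 was small against the spread of the old arrays (exact two-sided permutation p = 0.864, adjusted p = 0.864 over 3 differences). The spread lay in the old group: old replicate 3 read 1.20 and old replicates 2 and 6 read 2.82 and 2.81, against 1.98 to 2.46 in young arrays.

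Cox6a2 minus Cox8a was 2.26 ± 0.66 in the old arrays and 1.58 ± 0.49 in the young arrays. The change was 0.69 (exact permutation p = 0.0931, adjusted p = 0.140), with 5 of 6 old arrays above the young mean. Cox6a2 minus the probe set shared by Cox7a2 and Cox7a2l2 was 3.81 ± 0.66 in the old arrays and 2.66 ± 1.07 in the young arrays. That change was 1.15 (exact permutation p = 0.0584, adjusted p = 0.140), with 6 of 6 old arrays above the young mean.

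The isoform comparisons each used 1 probe set per gene, and probe sets of a gene had unequal age differences. The other bright Cox6a2 probe set differed by -0.50, against -0.24 for the one used. The Cox8a probe sets differed by -0.97 to -0.47, with -0.92 for the one used. The comparisons also depended on single arrays. Without old replicate 3, the changes against Cox8a and against the shared probe set were 0.89 and 1.36, and both passed (exact permutation adjusted p = 0.0476). When the pair with high GAPDH ratios, old replicates 3 and 4, was left out, all changes passed (exact permutation adjusted p = 0.0476 for each). They were 0.41 against Cox6a1, 1.43 against the shared probe set and 1.09 against Cox8a. This pair held the lowest old values against Cox6a1, 1.20 and 1.90, and against Cox8a, 1.22 and 1.67. Old replicate 3 was also the lowest old array against the shared probe set, at 2.75. The adjustment covers the differences within a setting and not the settings tried. Among the bright arrays, with 1 young array, Cox6a2 minus Cox8a turned to -0.35, while it was 1.42 among the dim arrays. Cox6a2 minus the shared probe set changed by 0.12 among the bright and by 1.95 among the dim arrays. Cox6a2 minus Cox6a1 changed by -0.26 among the bright and by 0.53 among the dim arrays.

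**Figure D4:**
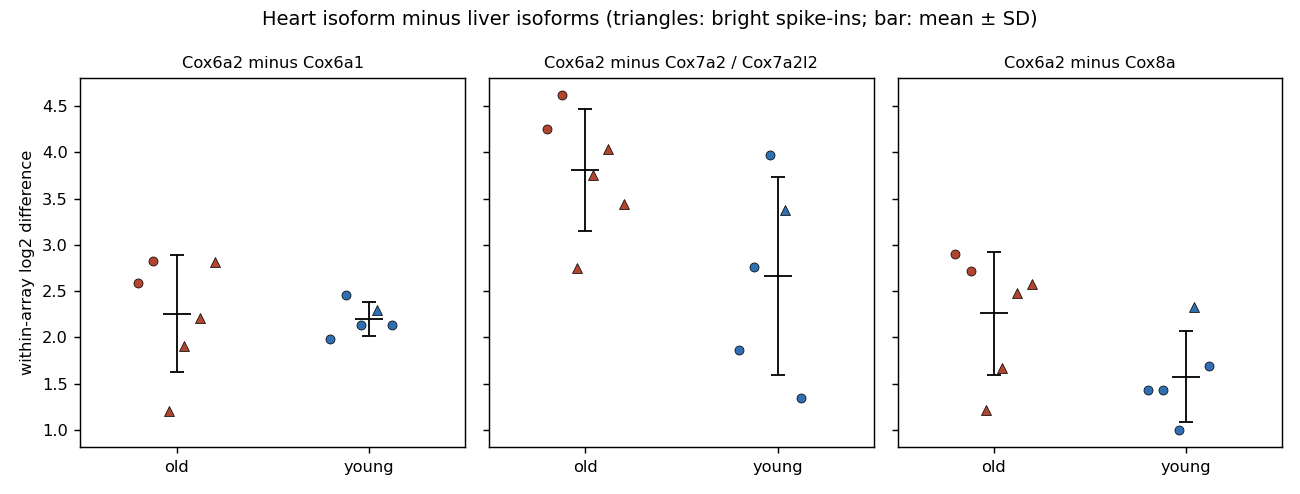
Log2 intensity of Cox6a2 (X12554cds_s_at) minus that of Cox6a1 (rc_AI104520_s_at), of the probe set shared by Cox7a2 and Cox7a2l2 (rc_AA819708_s_at) and of Cox8a (M28255_s_at) within each array, old arrays in red left of young arrays in blue, triangles for bright spike-ins, bar for mean ± SD. The group means are 2.26 and 2.20, 3.81 and 2.66, and 2.26 and 1.58 for old and young arrays.

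Probe sets of the same gene followed each other over the 11 arrays to unequal degrees. Of 17 pairs, 14 had a Pearson r above 0 and 1 passed after adjustment: the 2 bright probe sets of Cox6a2 had r = 0.919 (permutation p = 0.00059, adjusted p = 0.0100) and Spearman rho = 0.709 (permutation p = 0.0188, adjusted p = 0.106). Without young replicate 4 and old replicate 5, the arrays farthest from the median, r was 0.608. The opposite case was Cox6a1, where rc_AI104520_s_at and X72757_at had r = -0.747 (permutation p = 0.00827, adjusted p = 0.0600) and rho = -0.773 (permutation p = 0.00706, adjusted p = 0.0600). Without old replicate 6 and young replicate 4, r was -0.539. X72757_at was dim: it lay at the intensity floor of 5.57 in old replicate 4, read 5.91 in young replicate 4 and at most 9.06 elsewhere. For Cox4i1, J05425cds_s_at and rc_AA818226_s_at had r = 0.064 (permutation p = 0.854, adjusted p = 0.863) and rho = 0.136 (permutation p = 0.694, adjusted p = 0.737), and r was 0.074 without young replicate 1 and old replicate 1. All pairs share the 11 arrays and their scaling. The age differences of 2 probe sets of a gene were compared for the same 17 pairs, and 0 passed after adjustment (smallest exact permutation p = 0.0606, for the bright probe sets of Cox6a2, adjusted p = 0.745). At an unadjusted p under 0.05 there were also 0, but 1 pair reached it without young replicate 2, without old replicate 6 or without old replicate 3. These were the rc_AI102505 pair of Cox8a (exact permutation p = 0.00476, adjusted p = 0.0810), rc_AA818226_s_at and X54081mRNA_i_at of Cox4i1 (p = 0.00794, adjusted p = 0.135) and the bright pair of Cox6a2 (p = 0.0238, adjusted p = 0.405), in that order.

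The age differences were then read within arrays of like spike-in brightness. Among the 5 bright arrays 13 of the 17 probe sets lay lower in old, with a median difference of -0.92. Among the 6 dim arrays 14 of 17 did, with a median of -0.48. The bright class holds 1 young array, young replicate 4, so its differences rest on that array. With the class as a block in limma, 15 of 17 were lower, with a median of -0.68.

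**Figure D5:**
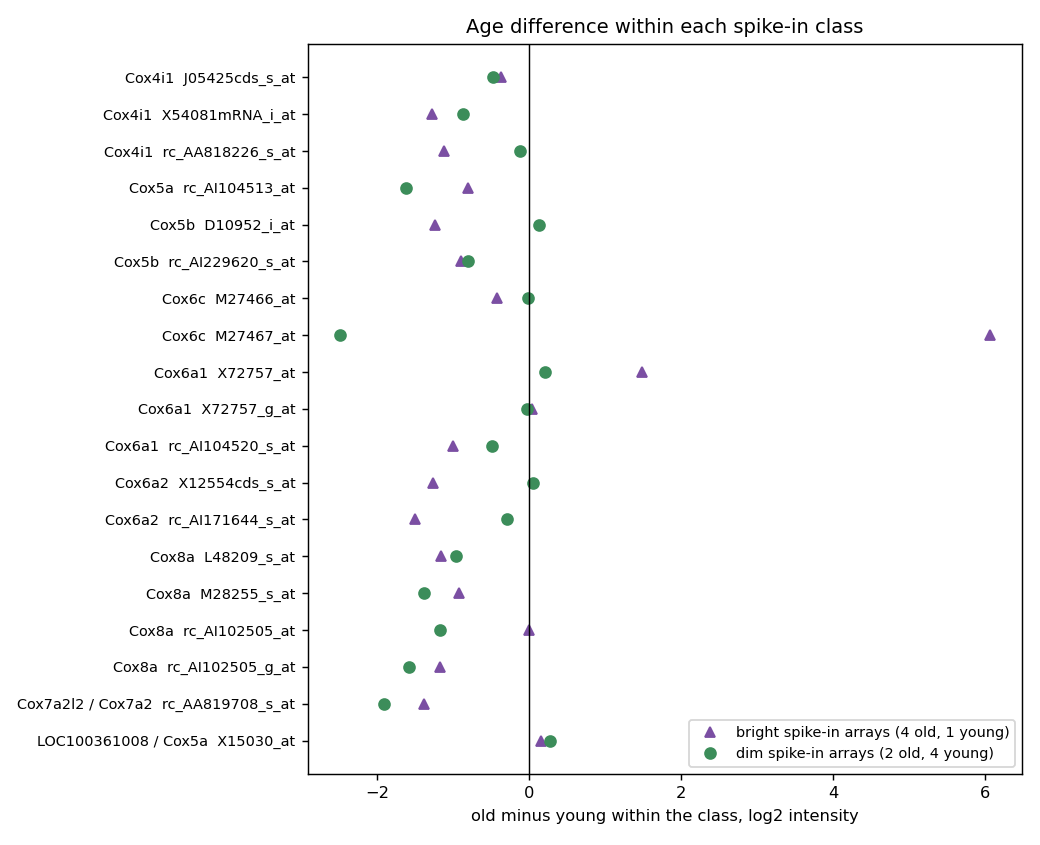
Difference of old minus young (log2 intensity) of the 19 tested probe sets within the bright arrays (triangles, 4 old and 1 young) and within the dim arrays (circles, 2 old and 4 young). M27467_at of Cox6c lies at 6.06 in the bright and -2.48 in the dim arrays, and the Cox8a and Cox7a2 / Cox7a2l2 probe sets lie left of 0 in both, except rc_AI102505_at at 0.00053 in the bright arrays.

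The other genes of the enzyme measured on the array gave values on both sides. Of 26 further subunit and assembly genes listed, 9 were tested, 7 of them lower in old, with a median of -0.39, and 0 passed. Cox8b, the heart form of subunit VIII, differed by -0.60 ± 0.33 and, by its other probe set, -0.34 ± 0.36. Cox7a2l, which takes part in supercomplexes of the chain, differed by -0.83 ± 0.46 (limma adjusted p = 0.683) and, by its other probe set, by -0.35 ± 0.48 (limma adjusted p = 0.882). The mitochondrially encoded catalytic subunit COX1 had positive differences, with 16.94 ± 0.88 in the old arrays and 16.14 ± 0.59 in the young arrays by rc_AA893485_g_at, a difference of 0.79 ± 0.43 (limma adjusted p = 0.677). The high old readings of rc_AA893485_g_at, 16.96 to 17.98, were those of the 4 bright old arrays, and its difference was 0.72 within the bright and -0.10 within the dim arrays. The other COX1 probe set differed by 0.84 ± 0.38 (limma adjusted p = 0.642), by 0.40 within the bright and by 0.34 within the dim arrays. COX3 differed by 0.15 ± 0.44, by 0.88 within the bright and by -0.79 within the dim arrays. COX2 differed by -1.01 ± 0.99, by 2.54 within the bright and by -4.07 within the dim arrays, with readings from 8.24 to 13.38 in old arrays and from 9.14 to 15.04 in young arrays.

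Neighbouring parts of the chain are given by the same counts, with each gene taken by its brightest probe set. Taken in this way, the 7 subunit genes ran from -0.92 for Cox8a to -0.06 for Cox6c, with Cox6a1 in the middle at -0.30. The subunit median of -0.46 given above is over probe sets and is not in this unit. Among 3206 genes 50.3% lay lower in old. All 29 tested genes of complexes I to III and cytochrome c did, with a median of -0.65, and 0 passed. Ndufv2, Ndufs7 and Ndufb9, subunits of complex I, differed by -0.96 ± 0.28, -0.86 ± 0.32 and -1.64 ± 0.63. Of 10 tested genes of the ATP synthase 8 lay lower, with a median of -0.20, and 0 passed. Its subunits Atp5f1d, Atp5f1c and Atp5pd differed by -1.06 ± 0.30, -0.42 ± 0.32 and -0.37 ± 0.30. Of 19 listed regulators of mitochondrial genes only 4 were on the array. Of these 4 tested regulators 3 lay lower, with a median of -0.78, and 0 passed. Ppara, Mef2d and Esrra, transcription factors active in heart muscle, differed by -1.15 ± 0.60, -1.03 ± 0.58 and -0.53 ± 0.61. Ppara and Esrra were dim, with means of 7.17 and 7.82 in old arrays against the intensity floor of 5.57.

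The genes whose readings followed the mean of the 7 subunits most closely were sought among 3199 other genes. Atp5f1e, a subunit of the ATP synthase, had the highest Pearson r over the 11 arrays, 0.886. It was followed by Rps29, a ribosomal protein, with 0.872. Chchd1, a protein of the mitochondrial ribosome, had 0.869, Pip4k2c, a lipid kinase, 0.866, and Man2c1, a mannosidase, 0.845. Their age differences ran from -0.66 to -0.12, and 0 of the 5 passed in limma. Their Spearman rho ran from 0.700 to 0.873, and without young replicate 4 and old replicate 1 their r ran from 0.825 to 0.916. These values were the highest of many and carry no p. Among the subunits themselves, the r of each gene with the mean of the other 6 ran from 0.231 for Cox6c to 0.947 for Cox6a1.

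Markers of cell types in or around the ventricle are given beside these differences, and their part in them was not tested. Heart muscle markers lay lower in old in 8 of 12 tested genes, with a median of -0.19. Ckm, the creatine kinase of muscle, had the smallest p of them, with a difference of -0.67 ± 0.30 and no overlap between the ages (limma adjusted p = 0.614). The summed intensity of these markers ran from 398081 to 597607 in old arrays and from 382817 to 592940 in young arrays. Blood markers lay higher in old in 4 of 4 (median 0.85), with sums of 19215 to 229932 in old arrays and 2710 to 112370 in young arrays. Fibroblast markers lay higher in 5 of 8 (median 0.40), with sums of 25825 to 66968 in old arrays and 29275 to 79297 in young arrays. Among them Lum and Pdgfra also had no overlap between the ages and lay higher in old. Lum differed by 1.19 ± 0.37 (limma adjusted p = 0.537) and Pdgfra by 0.60 ± 0.31 (limma adjusted p = 0.661). Groups lay apart in 0.973% of all tested probe sets. Smooth muscle markers lay higher in 4 of 5 (median 0.99), with sums of 989 to 17241 in old arrays and 1229 to 3220 in young arrays. Atrial markers lay higher in 3 of 3 (median 0.95), with sums of 9876 to 97376 in old arrays and 3758 to 35863 in young arrays. Macrophage and leukocyte markers lay higher in 4 of 7 (median 0.21), with sums of 7932 to 42274 in old arrays and 6973 to 9437 in young arrays. Fat cell markers lay higher in 5 of 7 (median 0.38), with sums of 8564 to 13613 in old arrays and 8348 to 16317 in young arrays. Endothelial markers lay lower in 3 of 3 (median -0.81), with sums of 348 to 1738 in old arrays and 1419 to 1957 in young arrays. Skeletal muscle markers lay higher in 5 of 8 (median 0.06), with sums of 5447 to 8246 in old arrays and 5236 to 7853 in young arrays, and the defining Myh2, Myh4, Tnni2 and Atp2a1 were too dim to be tested. In limma 0 markers of any list passed.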

How the data were processed

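The deposited table holds 1 linear intensity per probe set and array, made by the authors. For the software, background correction and detection calls, the sources used here state nothing. The deposited intensity values had been scaled, since means trimmed by 2% per tail ran from 500.47 to 500.96 over the arrays. Differences are thus relative to the other transcripts of an array.

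Intensities under the 20th percentile, 47.4, were set to it and all were put on the log2 scale, which understates differences of dim probe sets. The 59 control probe sets and those with a mean under the 40th percentile were left out, which left 5244. The ages were compared by limma 3.58.1 in R 4.3.3 (lmFit, eBayes with a trend, Benjamini-Hochberg over all 5244, threshold 0.05). Within-array differences were compared by exact two-sided permutation over all 462 splits, and correlations of probe sets by 100000 permutations, with Benjamini-Hochberg over the 3 isoform differences or 17 pairs. Scripts were tested on simulated data.

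Named were all probe sets of the subunits, the 3 genes of smallest p in each neighbouring list and the 5 most similar genes. Outside this rule, Myh6, Tnni3 and Actc1 were named to check the tissue. Chosen after their values were seen were COX2, COX3, Cox6c-ps1, Ckm, Lum, Pdgfra and the dim skeletal markers. So were the other probe sets of Cox8b, COX1 and Cox7a2l, and the within-class values of COX1 to COX3. The mitochondrial genes were matched by the capital symbols of the platform annotation. Members and lists were chosen with earlier results of these data known. Alternatives were other floors, filters and scalings, no trend, array weights, the replicate block, spike-in terms and classes, and leaving out arrays.

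Arrays shared replicate numbers between groups. The deviations of same-numbered arrays from their group means correlated above 0.1 in 1 of 5 pairs, that of replicate 1, at 0.25. Low correlations cannot exclude a pairing, so whether the numbers pair the samples is not known. The main comparison used no pairing.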

Additional observations from a re-analysis of the deposited data

Results flagged for a closer look

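Within groups of 6 old and 5 young arrays, the highest and the lowest array of each of the 20 probe sets and 3 isoform differences were set against the others by Dixon's test, 46 groups in all, of which chance flags about 1 in 20. Of the 46, 2 were flagged, no more than that rate gives. In these 2, young replicate 4 stood apart from the other young arrays for both bright probe sets of Cox6a2. For X12554cds_s_at it read 16.67, with the next young array at 15.49 and the lowest at 15.32. For rc_AI171644_s_at it read 16.05, with the next at 15.05 and the lowest at 14.66. Both probe sets read the same gene in the same array, so they are not separate events.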

How the results depend on the processing

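Under 27 alternatives 0 subunit probe sets were called. The count of probe sets lower in old, whose alternatives were added after the data were seen, as was leaving out old replicates 5 and 6, was 13 to 16 of 17 under those of the same probe sets, and 6 of 7 with probe sets averaged per gene. The median ran from -0.60 to -0.38 with 1 array left out and was -0.92 in the bright arrays alone. Over all probe sets 0 to 2 were called with 1 array left out, 2 of them without old replicate 5, and 2 without old replicates 5 and 6. The change of Cox6a2 minus Cox6a1 ran from -0.057 to 0.27 with 1 array left out, and was -0.13 with quantile normalization, -0.26 in the bright arrays and -0.071 without old replicates 5 and 6. With 1 array left out, that of Cox6a2 minus Cox8a ran from 0.54 to 0.89 and that against the shared probe set from 0.82 to 1.47, with 0.12 in the bright and 1.95 in the dim arrays. Without old replicates 3 and 4 the 3 changes were 0.41, 1.09 and 1.43, and all passed. That adjustment was over the 3 differences and not over the alternatives. In the bright arrays Cox6a2 minus Cox8a was -0.35.

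Reversals of single probe sets were as follows, and their cause was not tested. X72757_at of Cox6a1 was -0.15 with a floor at the 10th percentile, -0.32 with no floor, -0.12 with quantile normalization, -0.10 with median centring, -0.066 with array weights, -0.26 with the replicate block and -0.23 without old replicates 5 and 6. Only the old group has a replicate 6, so the replicate block takes that array out of the age difference. With the replicate block rc_AA818226_s_at of Cox4i1 was 0.055, and the block changed no call. M27466_at was 0.040 with quantile normalization. X15030_at was 0.23 blocked on spike-in class, 0.37 with spike-in brightness as a covariate, 0.16 in the bright and 0.27 in the dim arrays. X72757_g_at was 0.10 with the covariate, 0.041 in the bright arrays and 0.020 without old replicates 5 and 6, and M27467_at was -0.034 with the covariate and -2.48 in the dim arrays. In the bright arrays rc_AI102505_at was 0.00053. In the dim arrays D10952_i_at was 0.14 and X12554cds_s_at 0.047. With 1 array left out, rc_AA818226_s_at ran from -0.28 to 0.20, rc_AI104513_at from -0.74 to 0.15, X72757_at from -0.45 to 0.44, X12554cds_s_at from -0.42 to 0.012 and M27466_at from -0.31 to 0.11.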
